A study of Mus musculus with 6 samples.

Results

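D-type cyclins, the kinases Cdk4 and Cdk6, the Cdk inhibitors and the retinoblastoma protein form the switch that holds a cell in G1 or lets it enter S phase. The 10 genes described here were taken by symbol from the deposited table of 29659 mouse genes: the cyclin genes Ccnd1, Ccnd2 and Ccnd3, the kinase genes Cdk4 and Cdk6, the inhibitor genes Cdkn1a (p21), Cdkn1b (p27), Cdkn2c (p18) and Cdkn2d (p19), and Rb1. All 10 were among the 16551 genes with enough counts to be tested. They were measured by RNA-seq in the lateral ganglionic eminence (LGE), the part of the embryonic ventral forebrain that gives rise to striatal projection neurons, at embryonic day 16.5. All mice were C57BL/6. The 3 control libraries came from mice with the Dlx5/6-Cre transgene alone, and the 3 Zfhx3-CKO libraries from mice with Dlx5/6-Cre and 2 floxed alleles of the transcription factor gene Zfhx3 (Zfhx3F/F), so both groups express Cre. The transgene acts in cells of the ganglionic eminences that switch on the Dlx5/6 enhancer; other cells of the dissected piece keep Zfhx3.

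In outline, a D cyclin binds Cdk4 or Cdk6, the complex phosphorylates Rb1, and E2F factors held by Rb1 are released to switch on genes of DNA replication. Ink4 proteins (Cdkn2c, Cdkn2d) bind Cdk4 and Cdk6 and keep the cyclin away, while Cip/Kip proteins (Cdkn1a, Cdkn1b) bind cyclin-Cdk complexes and block those of Cdk2. In the ganglionic eminences Ccnd1 and Ccnd2 are known from cycling progenitors, and Cdkn1b and Cdkn2d from cells that leave the cycle or have left it.

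Depth ran from 15938590 to 16753355 counts per control library and from 18960574 to 20311799 per Zfhx3-CKO library, and the members held 367 (Cdkn1a) to 31246 (Ccnd2) counts per library. Zfhx3 itself, the targeted gene, read 134, 135 and 101 CPM (counts scaled to a common library size) in control libraries 1 to 3, against 98.8, 87.4 and 99.4 CPM for Zfhx3-CKO libraries 1 to 3, the order kept below. Its groups did not overlap, but the log2 fold change of -0.37 (SE 0.12) did not pass (adjusted p 0.091; exact two-sided permutation p = 0.1, the smallest that 3 against 3 libraries allow), and the counts cover the whole gene, so this tests the labels only in part. In edgeR's test Zfhx3 passed with no low-count filter (adjusted p 0.0308) and without control library 3 (0.0259). It did not pass in any other setting (up to 0.29, without control library 1). The labels do not tie the replicates to separate animals, and p-values therefore measure the spread among 6 libraries and no more. Sex split the libraries as genotype did: Xist had 5 to 9 counts among the controls but 55947 to 59631 among Zfhx3-CKO libraries, with Y-linked genes the other way round. All 10 members lie on autosomes, and sex and genotype cannot be told apart. Markers of cortical excitatory neurons and cortical progenitors, cells outside the LGE, summed to 121 to 144 CPM in the controls. The sums were 342, 200.3 and 396 CPM in Zfhx3-CKO libraries 1, 2 and 3. Of these, Lhx2 alone held 51.0, 57.8 and 67.5 CPM in the controls and 112, 121 and 84.0 CPM in the Zfhx3-CKO libraries. The median log2 of CPM over the control mean, among tested genes of the list, was 1.73, 0.09 and 2.02 in Zfhx3-CKO libraries 1 to 3. In the controls it was -0.04, -0.04 and 0.11, so Zfhx3-CKO library 2 lay within the control range by this measure. None of the 15 was at 0 in every library, and the part of such cells in the results was not tested. Being bulk tissue, the libraries cannot tell fewer cells of a type from less RNA per cell.

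Per length, the members covered a wide range of levels. Cdk4 was the most abundant at 164 ± 12.6 FPKM in the controls (fragments scaled by gene length and library size; SD, n = 3), followed by Ccnd2 at 137 ± 2.05 FPKM and Cdkn1b at 57.7 ± 2.59 FPKM. Rb1 (22.6 ± 0.537 FPKM) and Cdkn2d (21.9 ± 1.69 FPKM) came next, then Cdkn2c (12.7 ± 0.947), Cdkn1a (11.0 ± 1.52), Ccnd1 (10.2 ± 0.982), Cdk6 (8.82 ± 0.0569) and Ccnd3 (3.93 ± 0.479 FPKM). The control libraries of Cdkn2d and Rb1, of Cdkn2c and Cdkn1a, and of Cdkn1a and Ccnd1 overlapped, so the order within those pairs is not resolved. Over all 6 libraries Cdk4 and Ccnd2 overlapped as well, with Cdk4 above Ccnd2 in 5 of 6. Ccnd2 is thus the main D cyclin transcript of the tissue and Cdk4 the main G1 kinase transcript, with Ccnd3 and Cdk6 the least abundant of the 10.

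**Figure D1:**
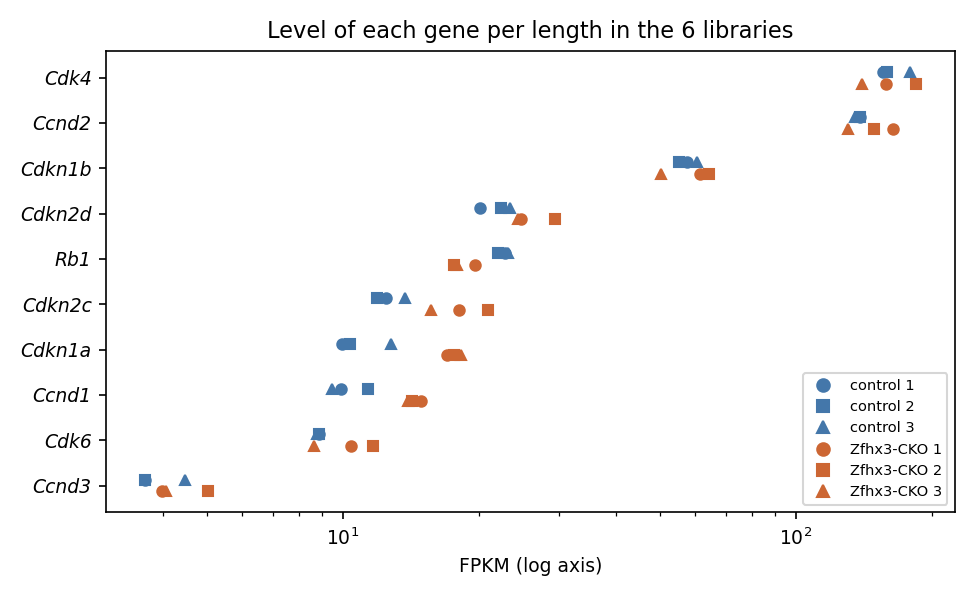
FPKM (log axis) of the 10 genes in each of the 6 libraries, with genes in order of their mean, controls in blue and Zfhx3-CKO in orange, and a marker shape for each library number. Cdk4 and Ccnd2 sit above 130 FPKM in all libraries and Ccnd3 lies lowest, at 3.65 to 5.04 FPKM.

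In the Zfhx3-CKO LGE 3 of the 10 members rose (Ccnd1, Cdkn1a and Cdkn2c), where 3.87% of all tested genes rose, and 1 fell (Rb1), where 3.49% fell; 7.36% of tested genes changed in either direction. The call is a Benjamini-Hochberg adjusted p under 0.05 in edgeR's quasi-likelihood test over all tested genes, and the adjusted p-values below are from it. The other 6 members did not pass. A D cyclin, a Cip/Kip inhibitor and an Ink4 inhibitor were therefore higher in the same libraries. Of the members, 4 were higher in every Zfhx3-CKO library than in every control library (Ccnd1, Cdkn1a, Cdkn2c and Cdkn2d; 15.5% of tested genes were) and 1, Rb1, was lower in every one (15.9% were).

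**Figure D2:**
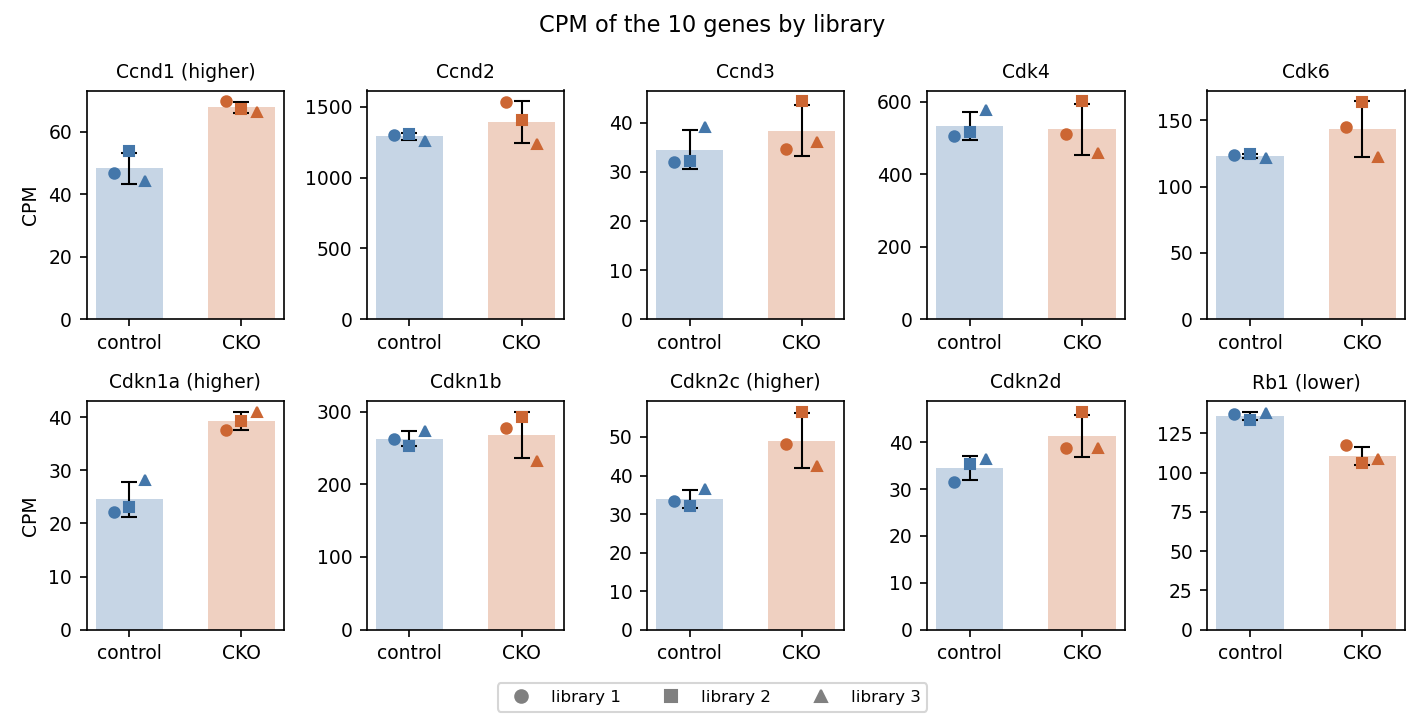
CPM of each gene in control (blue) and Zfhx3-CKO (orange) libraries; bars are means of 3 libraries, error bars are SD, and marker shapes give the library number. Points of the 2 groups do not overlap for Ccnd1, Cdkn1a, Cdkn2c, Cdkn2d and Rb1, of which all but Cdkn2d passed the test.

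Among the D cyclins, the regulatory partners of Cdk4 and Cdk6, Ccnd1 rose and the far more abundant Ccnd2 did not pass. Ccnd1 (ENSMUSG00000070348, chromosome 7, 144929931 to 144939925, minus strand, GRCm38) read 46.7, 53.7 and 44.2 CPM in control LGE against 69.6, 67.3 and 66.3 CPM in Zfhx3-CKO LGE. The groups did not overlap, and the 3 Zfhx3-CKO values lay within a few CPM of each other (67.7 ± 1.72 CPM against 48.2 ± 4.90 CPM, SD, n = 3 each). The log2 fold change was 0.49 (SE 0.09, adjusted p 0.0142). The call was lost without control library 1 (adjusted p 0.0838) or Zfhx3-CKO library 1 (0.0691). The library kit does not mark strand, and 1100 of the 4709 exonic bases of Ccnd1 are shared with Oraov1 on the other strand, a gene with a log2 fold change of 0.01 (adjusted p 0.967).

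Ccnd2 (ENSMUSG00000000184, chromosome 6, 127125162 to 127152193, minus strand), the D cyclin with the highest level here, read 1303, 1309 and 1259.8 CPM in control LGE against 1531, 1406 and 1241 CPM in Zfhx3-CKO LGE. Zfhx3-CKO libraries 1 and 2 lay above the controls and library 3 below them. Its log2 fold change of 0.11 had a 95% interval of -0.08 to 0.30 (adjusted p 0.439). Ccnd3 (ENSMUSG00000034165, chromosome 17, 47505051 to 47599691, plus strand), the scarcest of the family, read 32.1, 32.3 and 39.1 CPM against 34.7, 44.4 and 36.1 CPM. Its groups overlapped, with a log2 fold change of 0.15 (95% interval -0.13 to 0.44, adjusted p 0.476).

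As a share of D cyclin FPKM, Ccnd1 made up 6.52%, 7.39% and 6.36% in the controls and 8.15%, 8.47% and 9.38% in the Zfhx3-CKO libraries, while Ccnd2 made up 90.6% ± 0.426 and 88.7% ± 0.906 (SD, n = 3 each). The Ccnd1 share was higher in all 3 Zfhx3-CKO libraries than in any control, a description without a test. The summed D cyclin level was 152, 153 and 149 FPKM against 182, 168 and 149 FPKM, so that Zfhx3-CKO library 3 was level with the lowest control. Whether the changes of Ccnd1 and Ccnd2 differ from each other was not tested.

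The catalytic partners did not pass. Cdk4 (ENSMUSG00000006728, chromosome 10, 127063534 to 127067920, plus strand), the main G1 kinase transcript here, read 506, 518 and 577 CPM in control LGE against 510.2, 601 and 460.0 CPM in Zfhx3-CKO LGE. The Zfhx3-CKO libraries spanned the whole control range, with a log2 fold change of -0.03 (95% interval -0.26 to 0.21, adjusted p 0.902). Cdk4 shares 641 of its 3249 exonic bases with Tspan31 on the other strand (log2 fold change 0.05). Cdk6 (ENSMUSG00000040274, chromosome 5, 3341485 to 3531008, plus strand), the second D cyclin kinase, read 124, 125 and 122 CPM against 145, 164 and 122 CPM. Zfhx3-CKO libraries 1 and 2 lay above the controls and library 3 among them, and the log2 fold change of 0.22 did not pass (95% interval -0.01 to 0.45, adjusted p 0.219). Without Zfhx3-CKO library 3 it passed (log2 fold change 0.32, adjusted p 0.0252).

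The Cip/Kip inhibitors parted in size. Cdkn1a (ENSMUSG00000023067, chromosome 17, 29090979 to 29100722, plus strand), a p53 target that blocks cyclin-Cdk complexes, read 22.2, 23.1 and 28.2 CPM in control LGE against 37.5, 39.2 and 41.0 CPM in Zfhx3-CKO LGE. Every Zfhx3-CKO library was well above every control. It had the largest change of the 10 members, 0.68 on the log2 scale (SE 0.11, adjusted p 0.0104), or 39.2 ± 1.74 against 24.5 ± 3.24 CPM. The call was lost without control library 1 (adjusted p 0.0681) or control library 2 (0.0696). Cdkn1b (ENSMUSG00000003031, chromosome 6, 134920401 to 134925513, plus strand), the inhibitor known for cell-cycle exit in the forebrain, read 262, 253 and 273 CPM against 278, 293 and 232 CPM. Zfhx3-CKO library 3 lay below the controls and the other two above them, and the log2 fold change of 0.03 had a 95% interval of -0.18 to 0.24 (adjusted p 0.886). Cdkn1a made up 14.7%, 15.8% and 17.5% of Cip/Kip FPKM in the controls and 21.6%, 21.5% and 26.6% in the Zfhx3-CKO libraries, so Cdkn1b stayed the larger part in all 6.

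Of the Ink4 inhibitors, Cdkn2c rose and Cdkn2d did not pass. Cdkn2c (ENSMUSG00000028551, chromosome 4, 109660876 to 109667189, minus strand) read 33.4, 32.0 and 36.6 CPM in control LGE against 48.1, 56.5 and 42.4 CPM in Zfhx3-CKO LGE. The groups did not overlap, with Zfhx3-CKO library 3 nearest to the controls. The log2 fold change was 0.53 (SE 0.12, adjusted p 0.0323). The call was lost without any one of control libraries 1, 2 and 3 or Zfhx3-CKO library 1 (adjusted p 0.133, 0.137, 0.0602 and 0.0975) and with limma-trend on log2(FPKM + 0.1) (0.0507).

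Cdkn2d (ENSMUSG00000096472, chromosome 9, 21288410 to 21291407, minus strand), the Ink4 gene known from postmitotic neurons, read 31.6, 35.3 and 36.5 CPM against 38.7, 46.4 and 38.7 CPM. Its groups did not overlap either, yet the log2 fold change of 0.26 (95% interval 0.02 to 0.50) had an adjusted p of 0.162. The summed Ink4 level was 32.4, 34.2 and 37.0 FPKM in control LGE against 42.7, 50.3 and 40.0 FPKM, with no overlap. The inhibitor genes together reached 0.659, 0.650 and 0.741 of the D cyclin FPKM in the controls and 0.663, 0.786 and 0.731 in the Zfhx3-CKO libraries. On this ratio the groups overlapped.

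Rb1 (ENSMUSG00000022105, chromosome 14, 73183673 to 73325822, minus strand), whose protein holds E2F factors inactive until D cyclin kinases phosphorylate it, was the only member of the 10 to fall. Its level was 137, 133 and 138 CPM in control LGE against 117, 106 and 108 CPM in Zfhx3-CKO LGE. All 3 Zfhx3-CKO values lay below all controls, and the log2 fold change was -0.30 (SE 0.07, adjusted p 0.0322). The call was lost without any one of control libraries 1, 2 and 3 or Zfhx3-CKO libraries 1 and 2 (adjusted p 0.136, 0.124, 0.0861, 0.0674 and 0.0607). Rb1 shares 488 of its 6015 exonic bases with Rcbtb2 and 408 with Lpar6, both on the other strand (log2 fold changes 0.0035 and -0.21, neither passed). The other pocket protein genes Rbl1 (p107) and Rbl2 (p130) were measured at log2 differences of -0.03 and -0.02 (adjusted p 0.901 and 0.907). D cyclin FPKM was 6.66, 6.96 and 6.44 times that of Rb1 in the controls and 9.30, 9.58 and 8.32 times in the Zfhx3-CKO libraries.

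**Figure D3:**
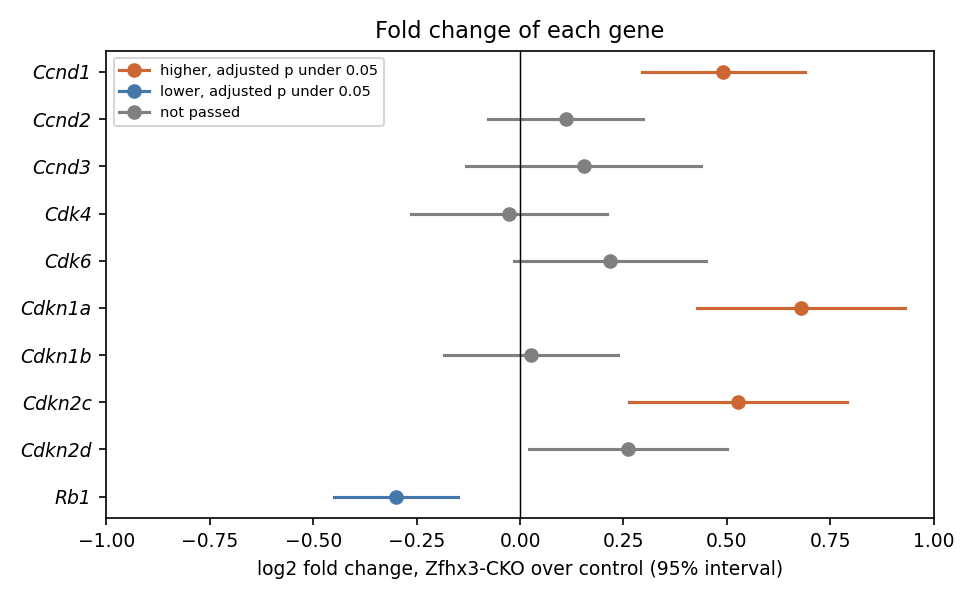
Log2 fold change (Zfhx3-CKO over control) of each gene with its 95% interval from edgeR's quasi-likelihood test on 3 against 3 libraries. Ccnd1, Cdkn1a and Cdkn2c lie above 0 and Rb1 below. The intervals of Ccnd2, Ccnd3, Cdk4, Cdk6 and Cdkn1b include 0. That of Cdkn2d (0.02 to 0.50) does not, though Cdkn2d did not pass (adjusted p 0.162).

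In the authors' deposited table the same 4 members have an adjusted p under 0.05, out of 1729 such genes, with log2 fold changes of 0.63 (Cdkn1a), 0.47 (Ccnd1), 0.49 (Cdkn2c) and -0.28 (Rb1). None of the 10 is marked significant there. In the authors' deposited table the 122 genes so marked have an absolute log2 fold change of at least 1.00.

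Promoter letters were read for the inhibitors that rose, to show what lies before starts of genes that moved together, and for Cdk4, the main kinase transcript. RefSeq (GRCm38.p6) entries existed for 7 of the 10 members, and Ccnd1, Ccnd2 and Rb1 had none. Each line holds the 250 bases before a start, 5′ to 3′ on the gene's strand, and capitals mark matches on either strand to any motif searched.
Cdkn1a, upstream start, chr17:29090729-29090978, plus strand: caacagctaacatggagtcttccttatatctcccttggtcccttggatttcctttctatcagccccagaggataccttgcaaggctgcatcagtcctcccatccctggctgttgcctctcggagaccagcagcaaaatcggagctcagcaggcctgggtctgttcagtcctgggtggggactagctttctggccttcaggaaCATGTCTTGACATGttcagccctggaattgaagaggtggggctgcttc
Cdkn1a, downstream start, chr17:29093519-29093768, plus strand: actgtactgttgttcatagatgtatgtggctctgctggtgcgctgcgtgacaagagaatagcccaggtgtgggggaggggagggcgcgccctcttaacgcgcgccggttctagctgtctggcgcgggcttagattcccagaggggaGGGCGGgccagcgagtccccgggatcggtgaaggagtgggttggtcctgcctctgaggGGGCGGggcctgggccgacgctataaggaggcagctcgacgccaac
Cdkn2c, upstream start, chr4:109666757-109667006, minus strand: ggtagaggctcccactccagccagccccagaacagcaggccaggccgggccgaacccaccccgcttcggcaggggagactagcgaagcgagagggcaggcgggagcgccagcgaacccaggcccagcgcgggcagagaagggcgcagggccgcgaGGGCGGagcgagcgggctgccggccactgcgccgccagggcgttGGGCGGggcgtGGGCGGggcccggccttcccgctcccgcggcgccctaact
Cdk4, chr10:127063285-127063534, plus strand: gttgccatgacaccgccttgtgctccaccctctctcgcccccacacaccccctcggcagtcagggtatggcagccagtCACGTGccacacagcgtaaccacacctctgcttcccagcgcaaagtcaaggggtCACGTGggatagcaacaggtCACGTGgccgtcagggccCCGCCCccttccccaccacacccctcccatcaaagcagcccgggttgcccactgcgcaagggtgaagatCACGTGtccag

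The motifs were the GC box GGGCGG, the E-box CACGTG, the CCAAT box CCAAT, the TATA box TATAAA, the cell-cycle element TTTGAA, an E2F site (TTTGGCGC, TTTCGCGC, TTTCCCGC or TTTGCCGC) and a pair of p53 cores (CATGNNNNNNCATG). The last was added after the Cdkn1a letters had been seen. The upstream Cdkn1a stretch holds the p53 core pair 48 bases before its start, a motif present in 0.49% of 32851 promoter entries of the same length, and no other of these motifs. The downstream Cdkn1a stretch holds 2 GC boxes and the printed Cdkn2c stretch 3, a motif found in 32.7% of all entries. Cdkn2c has a second entry (chr4:109665373-109665622, minus strand), not printed, which holds none of the motifs. Cdk4 holds 4 E-boxes, the letters that Myc-family factors bind, where 6.02% of entries hold any, and 1 GC box. No E2F match occurred in any of the 10 entries of the 7 members (1.86% of all entries have one). These are letter matches, and nothing here measured binding.

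The rest of the G1 pathway was compared with a list of 28 genes, of which 27 were tested. 1 rose, none fell and 26 did not pass in edgeR's test (5 higher and 2 lower at an unadjusted p under 0.05; DESeq2 called 2 higher and 0 lower). Over all 16551 tested genes, 4236 had an unadjusted p under 0.05 in edgeR's test, in either direction. Regardless of the test, 16 of the 27 had a positive log2 fold change, against 50.1% of all tested genes, and the list median was 0.09 where that of all genes was 0.0011. E2f2, an activating E2F factor, was 38.2 ± 1.81 CPM in control LGE and rose to 49.7 ± 5.14 CPM (log2 difference 0.38, adjusted p 0.0493). E2f1 (log2 fold change 0.46, adjusted p 0.0763) and Ccnh, the cyclin of the Cdk-activating kinase (-0.28, adjusted p 0.0597), came next and did not pass. The E-cyclin genes Ccne1 and Ccne2, partners of Cdk2, did not pass (log2 differences of 0.55 and -0.06, adjusted p 0.129 and 0.798). Of the remaining inhibitors, Cdkn1c (p57) was measured at 7.80 mean CPM in control and 7.45 in Zfhx3-CKO libraries (adjusted p 0.856) and Cdkn2b at 0.602 and 0.556 CPM, and Cdkn2a had 0 counts in the controls and 1 in the Zfhx3-CKO libraries together, too few to be tested. Myc and Mycn did not pass (-0.42 and -0.05, adjusted p 0.118 and 0.722). The E2f2 call was lost without any single library other than Zfhx3-CKO library 3 (highest adjusted p 0.18), with library totals only (0.0528) and with limma-trend on FPKM (0.0709 and 0.072 for the pseudocounts 1 and 0.1). Without Zfhx3-CKO library 3 the list had 5 genes higher and 2 lower, and without any other single library 0 and 0.

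Of 17 E2F target genes of the G1/S transition 1 rose, Mybl2, a Myb-family factor (42.7 ± 0.942 against 58.4 ± 8.52 CPM, 0.45 on the log2 scale, adjusted p 0.0442), and 16 did not pass. Rrm2, a ribonucleotide reductase subunit (0.50, adjusted p 0.056), and Tk1, thymidine kinase (0.45, adjusted p 0.0803), were nearest; 16 of the 17 log2 fold changes were positive, with a median of 0.28. Of 12 G2/M genes 3 rose and 9 did not pass: Mki67, which marks cycling cells (519 ± 35.3 against 794 ± 109 CPM, 0.61 on the log2 scale, adjusted p 0.0124), the kinetochore gene Cenpf (0.47, adjusted p 0.0294) and the topoisomerase gene Top2a (0.34, adjusted p 0.0477). All 12 were positive, with a median of 0.33. With 1 library left out, adjusted p reached 0.159 for Mybl2, 0.0735 for Mki67, 0.111 for Cenpf and 0.177 for Top2a. With all 6 libraries, limma-trend on FPKM (pseudocounts 1 and 0.1) lost Mybl2 (0.0722 and 0.0744), Cenpf (0.0551 and 0.0573) and Top2a (0.0724 and 0.0754), and library totals only lost Top2a (0.0509). The counts of higher genes turned on Zfhx3-CKO library 3: without it 14 of the 17 and 12 of the 12 were higher. Calls also grew over the whole table without that library, to 1082 higher and 1014 lower of 16735 tested genes. With all 6 libraries they were 640 and 578 of 16551. Without any other single library 0 of the E2F targets and 0 to 2 of the G2/M genes were higher.

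The list medians and the members were also read library by library. Relative to the control mean, the E2F target median was 0.34, 0.50 and -0.07 on the log2 scale for Zfhx3-CKO libraries 1, 2 and 3, the G2/M median at 0.37, 0.50 and 0.08, and the median of 14 LGE progenitor genes at 0.41, 0.50 and 0.06. In Zfhx3-CKO library 3 these medians were thus below the control library 3 values of 0.12, 0.10 and 0.16. Ccnd1 stood at 0.53, 0.48 and 0.46 and Cdkn1a at 0.61, 0.68 and 0.74, with similar values in the 3 libraries, and Rb1 at -0.21, -0.36 and -0.33. These members were called on the same libraries, and called genes of the lists were beyond every control in Zfhx3-CKO library 3 too: Mki67 at 681 CPM against at most 553, Top2a at 704 against 640, Cenpf at 224 against 196 and Mybl2 at 49.0 against 43.3 CPM. The pattern is therefore not particular to the members. Cdkn2c, at 0.50, 0.73 and 0.32, and Cdk6, at 0.23, 0.41 and -0.01, were lowest in library 3, as were Ccnd2 (0.25, 0.12 and -0.06), Cdk4 (-0.06, 0.17 and -0.21) and Cdkn1b (0.08, 0.16 and -0.18). Divided by Mki67, Ccnd1 CPM was 0.0894, 0.0970 and 0.0916 in the controls and 0.0868, 0.0749 and 0.0973 in the Zfhx3-CKO libraries, and the groups overlapped; for Cdkn2c the quotient was 0.0659 ± 0.00906 and 0.0617 ± 0.00154 (SD, n = 3 each). With both Zfhx3-CKO library 1 and library 3 left out, the single one that remains is taken to have the spread of the control group. In that fit log2 fold changes were 0.48 (Ccnd1), 0.68 (Cdkn1a), 0.73 (Cdkn2c), 0.41 (Cdk6), 0.43 (Cdkn2d) and -0.36 (Rb1). Those of Ccnd2, Ccnd3, Cdk4 and Cdkn1b were 0.12, 0.36, 0.17 and 0.16. Library 2, the one kept, had the highest CPM among the Zfhx3-CKO libraries for 6 members, so these values describe that library only.

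**Figure D4:**
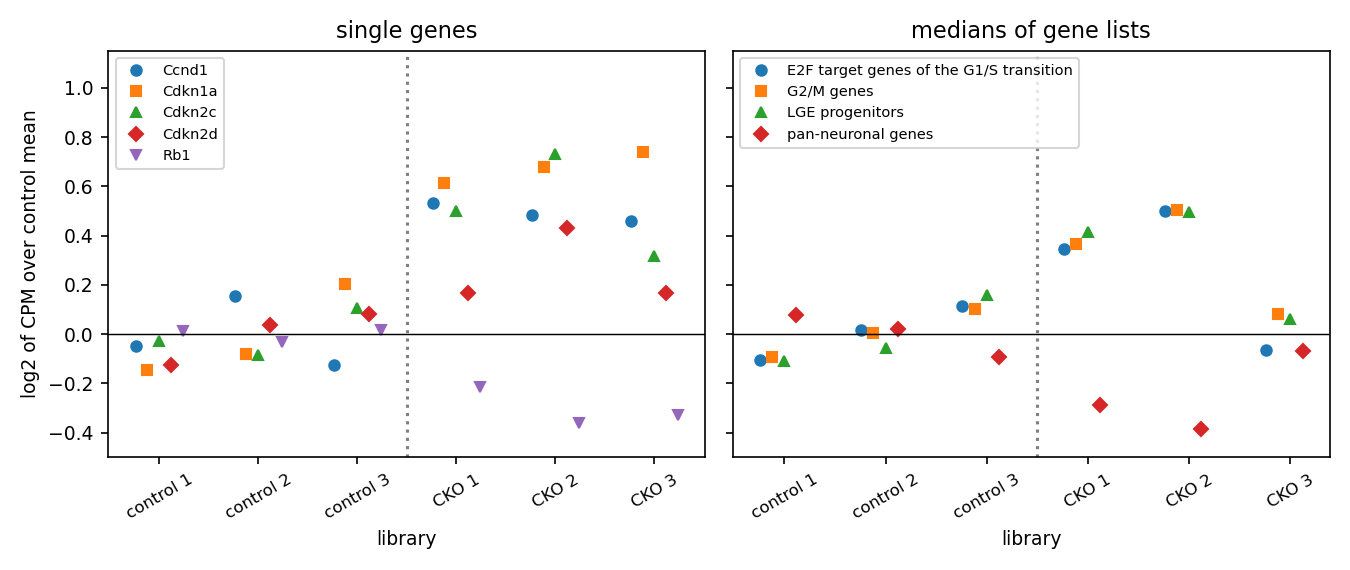
Log2 of CPM over the control mean in each library for 5 of the genes (left) and for the medians of 4 gene lists (right); the dotted line parts control from Zfhx3-CKO libraries. In Zfhx3-CKO library 3 the E2F target and G2/M medians are at -0.07 and 0.08, and Ccnd1, Cdkn1a and Rb1, which were called on these libraries, at 0.46, 0.74 and -0.33.

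Genes of the cell types in and around the LGE were read beside the members. Of 14 LGE progenitor genes 3 rose, the Notch pathway genes Hes1, Dll3 and Notch1 (log2 differences of 1.18, 1.00 and 0.48, adjusted p 0.00311, 0.00644 and 0.0307), and 11 did not pass. Hes5 and Dll1, of the same pathway, were among the 11 (0.27 and 0.21, adjusted p 0.433 and 0.306). Without Zfhx3-CKO library 3 the count of genes that rose was 7. Notch1 lost its call when any one control or Zfhx3-CKO library 1 was left out (adjusted p up to 0.133) and with limma-trend on FPKM (0.052 and 0.0538). Of 15 striatal projection neuron genes 8 fell and 2 rose. Among those that fell were the transcription factor genes Ikzf1, Ebf1 and Rarb, at -2.80, -2.89 and -1.11 (adjusted p 1.75e-05, 5.17e-05 and 0.000622). The 2 that rose were Drd2 and Penk, at 0.69 and 1.51 (adjusted p 0.0274 and 0.0158). Mean CPM was 24.3 in control and 39.1 in Zfhx3-CKO libraries for Drd2, and 4.64 and 13.2 for Penk. Leaving out control library 1 or 2 gave 5 lower and 0 higher, control library 3 gave 8 and 0, and Zfhx3-CKO library 1 gave 5 and 1. Of 9 pan-neuronal genes 1 fell, Elavl4, which encodes an RNA-binding protein (-0.37, adjusted p 0.0122). That count was 4 without Zfhx3-CKO library 3 and 0 without control library 1 or 2 or Zfhx3-CKO library 1. Rbfox3, a marker of mature neurons, lay the other way with groups that did not overlap, at 19.2 ± 2.41 against 33.3 ± 11.7 CPM (0.80). It did not pass (adjusted p 0.0794), though it did in DESeq2 (0.00781), with no low-count filter (0.00748) and without Zfhx3-CKO library 2 (0.0053). The tubulin gene Tubb3 did not pass (-0.19, adjusted p 0.104). The progenitor list summed to 2602 to 3059 CPM in the controls and 2637 to 3570 CPM in Zfhx3-CKO LGE, the striatal list to 3653 to 4251 and 2685 to 3078 CPM, and the pan-neuronal list to 5801 to 6328 and 4885 to 5832 CPM.

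Of 13 tested cortical genes 2 rose, Lhx2 and Bhlhe22 (0.85 and 2.92, adjusted p 0.0139 and 0.0401). All 13 had a positive log2 fold change and an unadjusted p under 0.05 in edgeR's test, with a median log2 fold change of 1.38. Over all 16551 tested genes, 4236 had such a p in either direction. Bhlhe22 was at 1.31, 1.07 and 0.659 CPM against 6.66, 1.91 and 14.6 CPM, and its log2 difference was 2.08 without Zfhx3-CKO library 3. Neurod2 did not pass (2.24, adjusted p 0.0519). The count of cortical genes called higher was 12 without Zfhx3-CKO library 2 and 0 without control library 1 or 2 or Zfhx3-CKO library 1. Olig2 rose among 5 oligodendrocyte precursor genes (0.50, adjusted p 0.0395), a list that summed to 105 to 117 CPM and 129 to 165 CPM, and its call was lost without control library 1 or 2 or Zfhx3-CKO library 1 or 2 (adjusted p 0.131, 0.141, 0.0788 and 0.0543) and with limma-trend on FPKM (0.0532 and 0.0565). Olig1 and Cspg4 did not pass (0.40 and 0.17, adjusted p 0.297 and 0.519), but Olig1 passed without Zfhx3-CKO library 2 (0.0186). Pdgfra and Sox10 of that list did not pass either (0.08 and 0.12, adjusted p 0.773 and 0.817). Among 7 microglial genes P2ry12 and Ptprc fell (-1.80 and -0.68, adjusted p 0.00407 and 0.0356), with list sums of 209 to 297 and 138 to 215 CPM. Ptprc lost its call without any single library other than Zfhx3-CKO library 3. Cx3cr1 lay the other way, at 44.9 ± 4.62 against 68.5 ± 18.5 CPM (0.61), and did not pass (adjusted p 0.0877), though it did in DESeq2 (0.0135), with no low-count filter (0.00944) and without Zfhx3-CKO library 3 (0.00132). None of 10 endothelial and pericyte genes passed in edgeR's test (295 to 307 and 305 to 385 CPM; 1 in DESeq2 and 3 at an unadjusted p under 0.05), and none of 5 red blood cell genes did (711 to 1081 and 706 to 2555 CPM; 1 in DESeq2 and 0 at an unadjusted p under 0.05). Pecam1, Tek and Flt1 had the smallest p of the endothelial list (adjusted p 0.0755, 0.133 and 0.166), and the globin genes Hbb-bs, Hbb-bt and Hba-a1 of the red blood cell list (0.290, 0.329 and 0.614). No gene of these lists was at 0 in all libraries, and the part of these cells in the member values was not tested.

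Cdkn1a is a standard p53 target, so 14 other p53 targets were read beside it. 2 rose and 12 did not pass, with 9 of 14 positive and a median log2 fold change of 0.22. At an unadjusted p under 0.05 in edgeR's test, 7 were higher and 1 lower, where 4236 of all 16551 tested genes had such a p. The lower one was Perp, a scarce transcript whose groups did not overlap (1.73 ± 0.573 against 0.870 ± 0.122 CPM, log2 fold change -0.99, adjusted p 0.104). Phlda3, an inhibitor of Akt signalling, rose the most, with 5.21 ± 2.07 CPM against 16.2 ± 3.10 CPM (1.63 on the log2 scale, adjusted p 0.0112), and Aen, a nuclease gene, rose too, with 52.6 ± 3.64 CPM against 72.0 ± 6.35 CPM (0.45, adjusted p 0.0225). Bbc3 (Puma) was nearest to the threshold (0.46, adjusted p 0.0775), while Mdm2 and Ccng1 lay at -0.09 and 0.25 (adjusted p 0.438 and 0.147). Without control library 1 or control library 2, Cdkn1a, Phlda3 and Aen each lost their call (highest adjusted p 0.0797 for Phlda3 and 0.111 for Aen). Aen also lost it when Zfhx3-CKO library 1 was left out. The list had 4 genes higher without Zfhx3-CKO library 3.

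The genes whose pattern over the 6 libraries lay nearest to that of Ccnd1, by the root-mean-square difference of log2 CPM deviations among 11049 other genes of at least 5 CPM, were Zfp276 (0.047), Timm8b (0.060), Plekha7 (0.062), Prex1 (0.063) and Atg101 (0.069). Nearest to Ccnd2 were Atp6v0a2, Brd9, Psmg4, Ints13 and Taf1a (0.019 to 0.031). None of the other 9 members was in either group, and with 6 libraries such nearness is a description only.

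**Figure D5:**
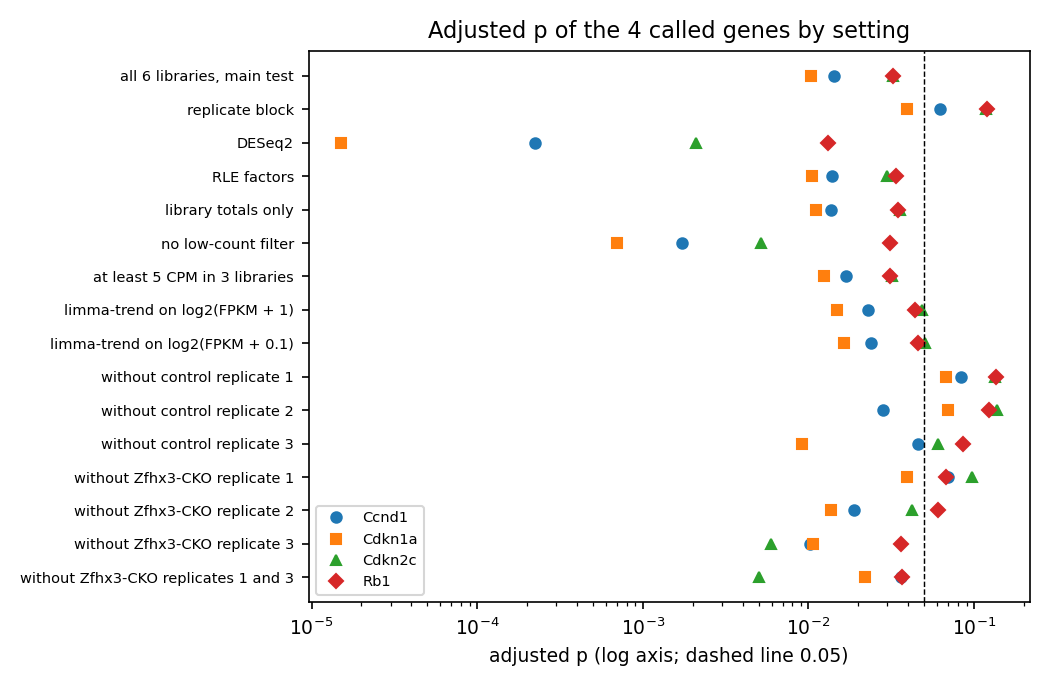
Adjusted p (log axis) of the 4 called genes in the test on all 6 libraries and in 15 alternative settings, with the threshold of 0.05 dashed. Cdkn1a stays left of the line except without control library 1 or 2, and Cdkn2c and Rb1 cross it most often, each in 6 settings.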

How the data were processed

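Gene-level tables from RNA-seq of mouse LGE (embryonic day 16.5) were the starting point. TruSeq RNA libraries had been prepared with 1 ug of RNA as input, per the labels' protocols. HISAT2, StringTie, edgeR and bcl2fastq 2.17.1.14 are listed in the submitters' processing notes, as are mm10 and GRCm38.p4, with no role given. The deposited counts are whole numbers per gene with no normalisation, per the file headers. FPKM, which divides fragments by gene length and library size, was computed by the authors and is named so in the headers. Log2 values (fold changes) and p-values of the authors' own comparison stand in the full table, whose headers name no test. Control columns of the full table (29659 genes) were tied to samples by group word and replicate number. The Zfhx3-CKO columns hold no group word. They were tied by replicate number, as the only other columns of counts and FPKM. Counts and FPKM of both groups were identical to the title-named columns of a shorter table for all 3726 genes in it.

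Groups were control and Zfhx3-CKO, 3 libraries each. Within groups, library pairs differed by more than sampling noise (chi-square per gene 3.35 to 29.3), so none was treated as a repeat deposit of another; this does not show that they are separate animals. The test was edgeR 4.0.16 in R 4.3.3 (quasi-likelihood, TMM factors 0.992 to 1.01, filterByExpr at a minimum count of 10, 13108 genes left out, no covariate), with Benjamini-Hochberg adjustment at 0.05. CPM uses the total over tested genes times the TMM factor. Alternatives were a replicate block, DESeq2 1.42.0, other scalings and filters, limma 3.58.1 on FPKM and libraries left out; list counts without libraries were added after seeing the data. Named genes were the members, Zfhx3, up to 3 genes with the smallest p of each list, whether or not they passed, and the 5 nearest patterns of Ccnd1 and Ccnd2. Ccne1, Ccne2, Cdkn1c, Cdkn2a, Cdkn2b, Rbl1, Rbl2, Myc, Mycn, Mdm2, Ccng1 and the overlapping genes were named beside members after their values were seen. Drd2, Penk, Perp, Pdgfra, Sox10, Hes5 and Dll1 were likewise named from their lists after their values were seen. The 10 members and the 13 lists (157 genes, all found) were chosen with earlier results of these data known.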

Additional observations from a re-analysis of the deposited data

How the results depend on the processing

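Of the 15 alternatives, 12 kept the call of Ccnd1, 13 that of Cdkn1a and 9 each those of Cdkn2c and Rb1, and none reversed any of these 4. Replicate numbers showed no pairing: deviations of same-numbered libraries correlated at -0.05, -0.09 and -0.29, and no library correlated best with its own number. With the replicate number as a block, 176 genes were higher and 136 lower (640 and 578 without it), 1 member was higher (Cdkn1a) and 0 lower, and Ccnd1 (log2 fold change 0.50, adjusted p 0.0621), Cdkn2c (0.52, 0.118) and Rb1 (-0.30, 0.12) did not pass. DESeq2 called 1011 genes higher, and keeping every gene with counts 1075. With limma-trend on log2(FPKM + 0.1), Cdkn2c had a log2 fold change of 0.51 and did not pass. Without Zfhx3-CKO libraries 1 and 3, 5 members were higher, among them Cdk6 (0.41) and Cdkn2d (0.43), and Cdk4 turned to 0.17, still not passed. Without single libraries, 156 to 1082 genes were higher and 131 to 1014 lower, 0 to 4 members were higher and 0 to 1 lower. Over the same 6 fits log2 fold changes spanned 0.43 to 0.58 (Ccnd1), 0.62 to 0.79 (Cdkn1a), 0.42 to 0.62 (Cdkn2c), -0.34 to -0.27 (Rb1), 0.12 to 0.32 (Cdk6), -0.13 to 0.060 (Cdk4; above 0 without control library 3, 0.03, or Zfhx3-CKO library 3, 0.060) and -0.040 to 0.12 (Cdkn1b; -0.040 without Zfhx3-CKO library 2). Outside the members 4 genes, none of them called, turned: the globin genes Hbb-bs (-0.013 to 1.03), Hbb-bt (-0.065 to 1.01) and Hba-a1 (-0.49 to 0.77) over the 6 fits, each below 0 without Zfhx3-CKO library 2, and Olig1 without Zfhx3-CKO libraries 1 and 3 (-0.23). The causes were not tested. CPM per kilobase of a deposited length was not run, as the table read here gives no length.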
